A study of Rattus norvegicus with 4 samples.

Results

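The open chromatin of rat chromosome 10 was examined along its length in retinal ganglion cells (RGCs) of the late embryo (day 21, E21) and of the postnatal pup (day 11, P11). The set holds every open chromatin region (OCR) that the authors called on chromosome 10 in 4 ATAC-seq libraries, with overlapping OCRs of different libraries joined into 1 region. It numbers 11274 regions of 228726 in the whole series, and the other 19 numbered chromosomes, with 213441 regions, served as the background. Chromosome 10 was selected on the same calls that are described here, so its counts of regions open at 1 stage only are given as a description, with no test.

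Both groups were RGCs immunopanned with an antibody against Thy1 from retinas of Sprague Dawley rats, and no transgene or treatment is named for either. The E21 group came from embryos near birth and the P11 group from pups shortly before the eyes open. Each stage had 2 libraries, each from 300000 frozen cells of its own litter, so n = 2 litters per stage. A library pools the animals of a litter, and fewer cells with a region open cannot be told apart from less opening per cell.

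RGCs send the axons of the optic nerve. Around birth they extend axons readily, and in the days that follow they lose most of that capacity while their synapses form. In ATAC-seq a transposase inserts adapters into DNA that is not wrapped tightly in nucleosomes, so promoters, enhancers and other regulatory stretches appear as OCRs. Chromosome 10 is a gene-rich chromosome of the rat. RefSeq places 1788 protein-coding genes on it in the GRCr8 assembly, more than on all but 2 other numbered chromosomes, among them Stat3 and Socs3 of the injury response, Crebbp, a coactivator of CREB, and the Hoxb cluster. The positions below are those of the deposited lists, for which the submitters name Rnor_6.0 and rn6. No annotation of that build was used, so no region was assigned to a gene and the labelled cell type was not checked at marker genes. None of the 7 RGC marker genes looked up in RefSeq lies on chromosome 10.

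The E21 libraries held 6709 and 8232 OCRs on chromosome 10 in replicates 1 and 2, and the P11 libraries held 7580 and 7622. Both P11 values lay between the E21 values. The stage means were 7470.5 ± 1076.9 and 7601 ± 29.7 OCRs (SD, n = 2 each). Their difference of 130.5 in favour of P11 was smaller than the spread between the E21 litters. It carries no test, since the chromosome was selected on these calls. The direction turned when only OCRs with a −log10 q of 5 or more were kept, where the P11 mean was lower (difference −353.5).

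Chromosome 10 held 5.42% of the OCRs on numbered chromosomes in both E21 libraries, 4.98% in P11 replicate 1 and 4.66% in P11 replicate 2. The means were 5.42% ± 0.000668 at E21 and 4.82% ± 0.227 at P11 (SD, n = 2), and the difference of −0.606 percentage points exceeded the SD of either stage. The chromosome was selected on these calls, so this difference carries no test.

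The P11 libraries were the shallower ones. The genome-wide background pileup, the lowest local background in a list, counted in fragments and rising with depth, was 4.80 for E21 replicate 1, 5.03 for E21 replicate 2, 4.30 for P11 replicate 1 and 4.17 for P11 replicate 2. No call in any list had fewer than 14 fragments at its summit at E21 or 13 at P11, and a missing region means only that it was not detectable at that depth. On chromosome 10 the median fold, the fragments at the summit over the local background as the authors give it, stood at 5.81 and 5.57 in the E21 replicates and at 4.57 and 4.80 in the P11 replicates. It was a little above that of the other chromosomes in the E21 libraries (5.69 and 5.47) and a little below it in the P11 libraries (4.62 and 4.84). OCRs covered 3.27 and 4.20 Mb of the chromosome at E21 and 3.71 and 3.66 Mb at P11.

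The P11 litters were nearly balanced on chromosome 10, whereas on the other chromosomes pooled replicate 2 held more of the unshared OCRs. Among OCRs found in 1 of these 2 litters only, 49.6% belonged to replicate 1 on chromosome 10 (1360 against 1382 in replicate 2), whereas replicate 1 held 39.7% on the other chromosomes. Chromosome 12 alone had a higher value, 53.6%, and chromosome 19 was also near balance at 48.1%. Regions called in P11 replicate 2 and no other library made up 6.67% of chromosome 10 and 10.0% of the other chromosomes, while those called only in P11 replicate 1 made up 7.23% and 6.82%. The E21 litters differed less from the background, with 17.7% of their unshared OCRs in replicate 1 against 20.2% elsewhere. The split of stage-specific regions, the windows, the shared regions, the rank shifts and the fold test are therefore also given without P11 replicate 2.

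On chromosome 10 the regions open at only 1 stage were split almost evenly between the stages. A region was counted as stage-specific when both libraries of 1 stage and neither of the other had it. There were 1116 E21-specific regions, 9.90% of the chromosome's regions against 7.49% on the other chromosomes. There were 1152 P11-specific regions, 10.2% against 12.6% elsewhere. The share of E21 among stage-specific regions was thus 49.2% on chromosome 10 and 37.2% on the other chromosomes pooled, an excess of 12.0 percentage points. All other numbered chromosomes were lower, and ran from 24.8% on chromosome 17 to 41.8% on chromosome 12, with a median of 37.5%. The evenness came from both sides: chromosome 10 had the highest percentage of E21-specific regions of the 20 chromosomes (5.14 to 8.51% on the others) and the lowest of P11-specific regions (11.2 to 15.6% on the others).

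**Figure D1:**
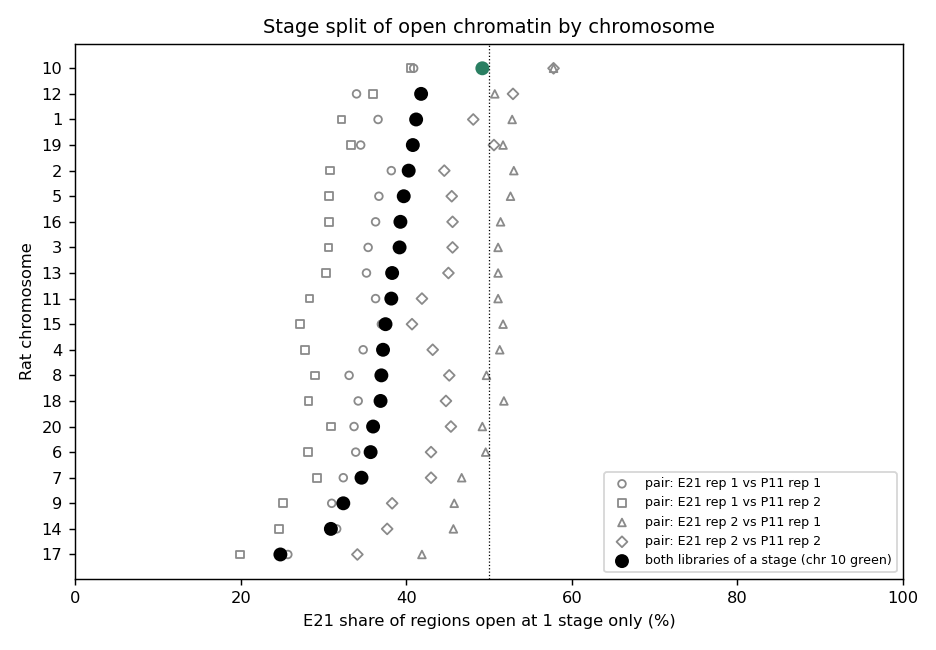
Share of E21 (%, x axis) among regions open at 1 stage only, for each of the 20 numbered rat chromosomes (y axis, ordered by the share). Filled points use both libraries of each stage, with chromosome 10 in green at 49.2%, and open symbols are the 4 pairs of 1 E21 and 1 P11 library, which on chromosome 10 run from 40.5 to 57.8%. The dotted line marks equal numbers.

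The excess was seen in every pair of an E21 and a P11 library. Its mean was about as large as the gap between chromosome 10 and the rest in the comparison of the P11 litters. When E21 replicate 1 was compared with P11 replicate 1 alone, E21 held 40.9% of the unshared regions on chromosome 10 and 34.6% elsewhere. The other 3 pairs gave 40.5% against 29.1% (E21 replicate 1 with P11 replicate 2), 57.8% against 50.2% (E21 replicate 2 with P11 replicate 1) and 57.8% against 43.9% (both replicates 2). The excess was therefore positive in 4 of 4 pairs, at 6.3, 11.4, 7.6 and 13.9 points, with a mean of 9.80 ± 3.49 (SD, 4 pairs that share libraries), and chromosome 10 had the highest E21 share of the 20 chromosomes in each. It was larger in the pairs with P11 replicate 2. The comparison of the P11 litters with each other gave a gap of 9.9 points between chromosome 10 and the rest, of the same size as this mean. Without P11 replicate 2, with a region then needing P11 replicate 1 alone, E21-specific regions numbered 1536 and P11-specific ones 2008, the E21 share on chromosome 10 was 43.3% and its excess 7.64 points, and it remained first of 20 with chromosome 2 next at 39%. Which stage had more regions also followed the length of the lists: when each list was limited to the same number of its strongest OCRs, the E21 share was 62.9% on chromosome 10, with chromosome 12 next at 55.7%.

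The largest group of the chromosome's open regions was called in all 4 libraries. Of the 11274 regions, 4210 (37.3%) were called in all 4 libraries, against 36.0% on the other chromosomes, and 4567 were called in the 3 libraries other than P11 replicate 2. A further 1408 (12.5%) were called in 3 libraries and 2981 (26.4%) in a single library. Reproducible regions, those in both libraries of a stage, numbered 6094 at E21 and 6002 at P11. Of these, 18.3% were specific to E21 and 19.2% to P11, where the background had 15.2% and 22.7%. Regions in both E21 libraries and in P11 replicate 1 but not replicate 2 made up 3.17% of chromosome 10 and 2.11% elsewhere.

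Stage-specific regions were narrow and weak beside the shared ones. Ranks are percentiles of −log10 q among all OCRs of the same library, from 0 for the weakest to 100 for the strongest. The median E21-specific region was 357 bp wide and ranked at the 32.8 and 41.4 percentile of the E21 lists, with 29 and 34 fragments at its summit. P11-specific regions had a median width of 411 bp, ranks of 37.3 and 33.1, and 25 fragments in both libraries. Shared regions had a median width of 745 bp and ranks of 69.5, 75.3, 70.3 and 68.2 in E21 replicates 1 and 2 and P11 replicates 1 and 2. On the other chromosomes the shared regions ranked at 64.9, 71.7, 70.2 and 72.3, so those of chromosome 10 ranked higher in both E21 lists, alike in P11 replicate 1 and lower in P11 replicate 2.

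The even split held over most of the range of strength and gave way at the top. Below the 25th percentile, by the mean rank in the region's own stage, 323 regions were E21-specific and 355 P11-specific, an E21 share of 47.6%. Between the 25th and 50th percentile the counts were 523 and 522, and between the 50th and 75th they were 247 and 228 (52.0%). Above the 75th percentile only 23 regions were E21-specific and 47 were P11-specific, a share of 32.9%. The other chromosomes fell steadily over the same bins, through 40.5, 38.8 and 32.7% to 16.3%, so chromosome 10 lay above them in every bin and the gap was widest in the upper 2.

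The strongest E21-specific region of the chromosome lay at chr10:45688824-45689422. Its fold was 14.5 and 12.5 in E21 replicates 1 and 2, from 155 and 129 fragments, and it ranked at the 92.0 and 90.0 percentile. Next came the region at chr10:102810478-102811474, 997 bp wide, with folds of 13.3 and 11.7. A higher fold was found at chr10:87829221-87829903, 17.2 and 15.7, from fewer fragments (99 and 94), because its local background was at the genome-wide level of each library. The other 2 of the leading 5, at chr10:86459388-86459992 and chr10:83352860-83353398, had folds between 12.4 and 15.8. Neither P11 library had a call at any of them. The last 3 of these regions lie within a span of 4.48 Mb.

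The leading P11-specific regions were mostly lower in fold than those of E21 and lay far apart. The region at chr10:109448572-109449173 had folds of 9.66 and 7.82 in P11 replicates 1 and 2, from 114 and 84 fragments, and ranked at the 95 and 89.7 percentile. Folds of 8.76 and 10.6, and ranks of 88.9 and 91.9, were found at chr10:7264483-7265287. At chr10:89760447-89761245 the folds were 12.3 and 10.3, from only 64 and 52 fragments, the fewest of the leading 5. The remaining regions, at chr10:75505175-75505887 and chr10:63707296-63707937, had folds from 7.50 to 10.5. Folds at P11 were lower across whole lists, so ranks rather than folds compare the leading regions of the stages.

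Open chromatin was spread unevenly along the chromosome. In 113 windows of 1 Mb the number of regions ran from 1 to 200, with a median of 104. The densest window, from 107 to 108 Mb, held 200 regions, of which 73 were shared. The windows from 75 to 76 Mb (185), 106 to 107 Mb (179), 102 to 103 Mb (170) and 20 to 21 Mb (165) came next. At the other end, the window from 60 to 61 Mb held a single region, that from 111 to 112 Mb held 7 and that from 44 to 45 Mb held 11.

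The stage split varied along the chromosome. Among the 62 windows with at least 20 stage-specific regions, E21 held more than P11 in 23, P11 held more in 36, and the counts were equal in 3. The E21 share ran from 16.0 to 77.3% with a median of 46.2%, against a median of 34.1% over 1013 such windows of the other chromosomes, of which 14.0% had more E21-specific regions (37.1% on chromosome 10). With each list limited to the same number of its strongest OCRs, E21 held more in 44 of 57 windows. Without P11 replicate 2 it held more in 26 of 94. A window with exactly 20 such regions was included and a window with 19 was not. There were 6 windows of the former kind and 5 of the latter, with shares from 26.3 to 84.2% in the latter. The windows with the highest E21 share were 23 to 24 Mb and 87 to 88 Mb, each with 17 E21-specific and 5 P11-specific regions (77.3%). Then came 19 to 20 Mb (73.3%), 50 to 51 Mb (72.7%) and 21 to 22 Mb (72.0%). The lowest share, 16.0%, was found from 63 to 64 Mb, with 4 E21-specific and 21 P11-specific regions. The windows from 4 to 5 Mb (20.6%), 107 to 108 Mb (25%), 82 to 83 Mb (26.9%) and 66 to 67 Mb (27.3%) were the next lowest. The densest window of the chromosome was thus among those most strongly tilted towards P11, with 10 E21-specific and 30 P11-specific regions.

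**Figure D2:**
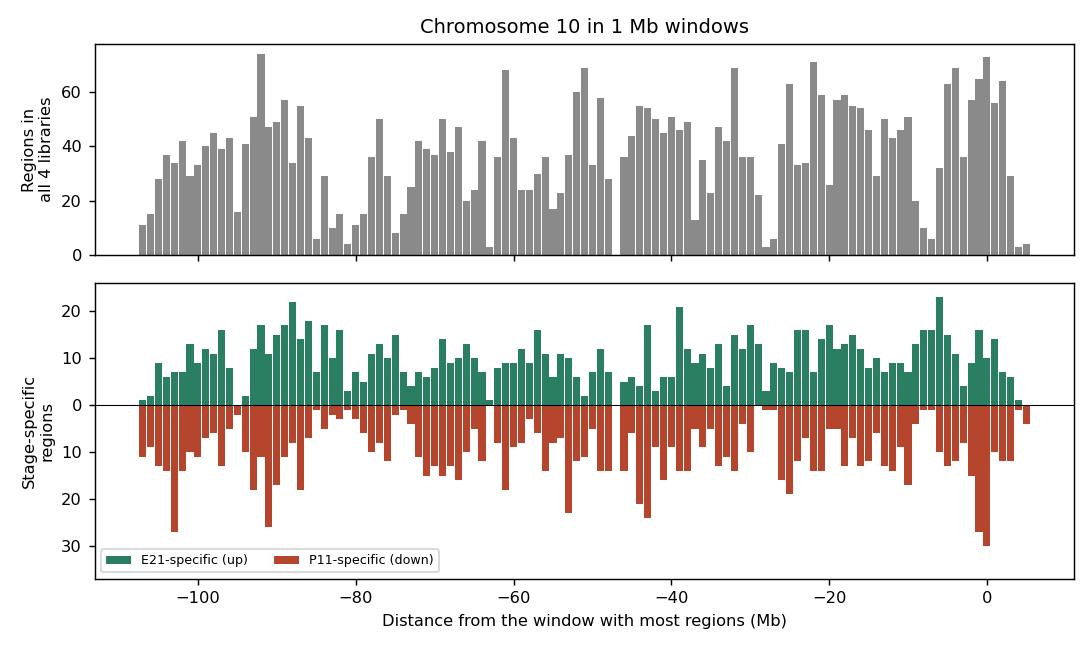
Chromosome 10 in 113 windows of 1 Mb, placed by their distance in Mb from the window with most regions (x axis). The upper bars give the number of regions called in all 4 libraries, and the lower bars the number of E21-specific regions (green, upward) and P11-specific regions (red, downward), with the P11 bar reaching 30 in the window at 0.

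Some adjoining windows leaned the same way. A stretch was defined, after the values were seen, as at least 3 windows in a row with at least 60% of their stage-specific regions from the same stage. No minimum number of regions per window was set, and such stretches were not counted on the other chromosomes. Whether they are more than a random order would give was not tested. E21 had 4 such stretches. The longest, from 21 to 28 Mb, held 78 E21-specific and 22 P11-specific regions over 7 windows. Its windows from 22 to 23 and from 26 to 27 Mb held only 8 and 4 stage-specific regions. The most tilted, from 98 to 102 Mb, held 68 and 16 (81.0%), and the stretch from 76 to 81 Mb held 54 and 16 (77.1%). The fourth, from 48 to 51 Mb, held 37 and 17.

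P11 had 6 such stretches, from 3 to 6, 12 to 15, 35 to 38, 54 to 57, 65 to 68 and 104 to 108 Mb. The last of them held 39 E21-specific and 80 P11-specific regions among 588 regions, and that from 3 to 6 Mb held 20 and 55. In pairs of same-numbered libraries, whose unshared regions include the stage-specific ones, the pooled E21 share of the E21 stretches ran from 52.4 to 67.2% for replicates 1 and from 65.0 to 83.8% for replicates 2. That of the P11 stretches ran from 24.5 to 36.7% for replicates 1 and from 35.5 to 51.9% for replicates 2, so the stretch from 65 to 68 Mb was near even in the latter. Within the P11 stretches there were between 36 and 57.8 shared regions per window, and within the E21 stretches between 16.9 and 26. The 4 E21 stretches together held 237 E21-specific and 71 P11-specific regions in 19 windows. In the other 94 windows the counts were 879 and 1081, an E21 share of 44.8%, still above the 41.8% of the next chromosome as a whole. The elevated share was thus not confined to the stretches, and 4 successive lengths of the chromosome were alike, at 50.5% up to 28 Mb, 48.9% up to 56 Mb, 46.5% up to 84 Mb and 50.6% beyond.

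Runs of neighbouring stage-specific regions are made of the same calls as the stretches, so they add no separate evidence. The next stage-specific region was of the same stage for 56.4% of E21-specific and 57.8% of P11-specific regions. On the other chromosomes these values were 45.7 and 67.8%. Such values depend on the share of each stage among stage-specific regions. The shares of E21 and P11 were 49.2 and 50.8% on chromosome 10 and 37.2 and 62.8% elsewhere. Each value was above its stage's share, on chromosome 10 and elsewhere. Taking stage-specific regions alone, the longest run from 1 stage was 18 E21-specific regions in a row between 99801931 and 100599714, a span of 797.8 kb. Runs of 16 and 14 E21-specific regions lay between 24304454 and 25526715 and between 78021395 and 79273395. The P11 runs were of similar number but mostly tighter, with 15 regions within 246.2 kb between 54031726 and 54277940 and 12 within 296.2 kb between 107794055 and 108090258. A further run of 15 P11-specific regions lay between 300554 and 1142331, near the start of the chromosome and outside the P11 stretches. The run of 12 ended past the stretch from 104 to 108 Mb. The first window of the chromosome, singled out after its values were seen, held 1 E21-specific and 11 P11-specific regions, and its 11 shared regions had median ranks of 38.3 and 41.4 in the E21 lists and 80.8 and 86.0 in the P11 lists.

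The E21 share was highest where shared open chromatin was sparse, where P11-specific regions thinned out more than E21-specific ones. The sparsest windows, those with fewer than 20 shared regions, had a mean of 6.38 E21-specific and 3 P11-specific regions, and the densest, with 60 or more, had 10.2 and 16.1. In the 21 windows with fewer than 20 shared regions the pooled E21 share was 68.0%. With 20 to 39 shared regions it was 53.4%, with 40 to 59 it was 45.2%, and in the 12 windows with 60 or more it was 38.7%. The other chromosomes fell in the same way from 47.5 through 38 and 34.8 to 31.0%. Window by window the relation was weak. Over the 62 windows with at least 20 stage-specific regions, Spearman's rho between shared regions and E21 share was −0.261 (−0.113 on the other chromosomes). None of these 62 windows was of the sparsest class. At equal density chromosome 10 had the highest share of the 20 chromosomes in the upper 3 classes and the second highest in the sparsest class. Distances differed in the same sense. An E21-specific region lay a median of 9.03 kb from the nearest shared region and a P11-specific region 6.42 kb, with 90 E21-specific (8.06%) and 29 P11-specific regions (2.52%) more than 50 kb away. On the other chromosomes the medians were 9.51 and 7.39 kb and the percentages 9.31 and 4.92%, all above those of chromosome 10.

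**Figure D3:**
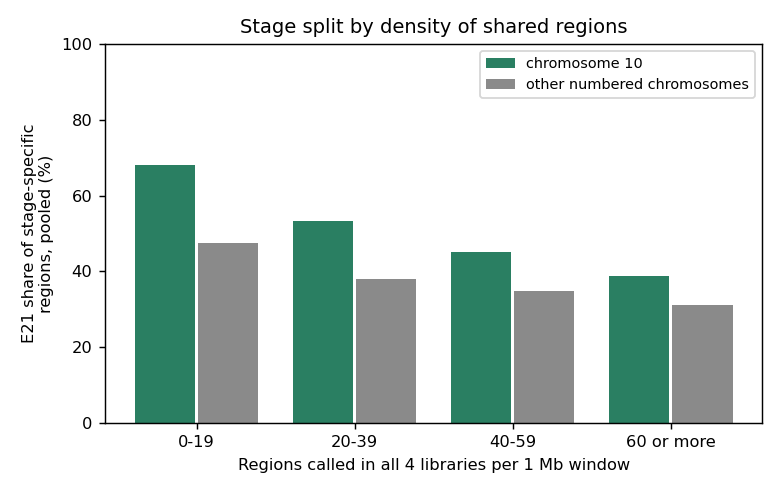
Pooled E21 share of stage-specific regions (%, y axis) in 1 Mb windows grouped by the number of regions called in all 4 libraries (x axis), for chromosome 10 (green) and the other numbered chromosomes (grey). The share falls with density in both, from 68.0 to 38.7% on chromosome 10 and from 47.5 to 31.0% elsewhere, and the bars have no error since each pools windows.

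The level of the split in a window depended on the library pair. Over the 62 windows, the E21 share from replicates 1 and that from replicates 2 had a Pearson r of 0.749 and a Spearman rho of 0.743, against 0.755 and 0.725 over 1013 windows of the other chromosomes. Stage-specific regions enter both shares and the windows were kept for holding them, so these values are raised by construction and show no repeatability. E21 led in both pairs in 10 windows and trailed in both in 23, and the share from replicates 2 was higher in 61 of the 62 windows. On the other chromosomes E21 led in both pairs in 53 of the 1013 windows and trailed in both in 706. There the share from replicates 2 was higher in 900.

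**Figure D4:**
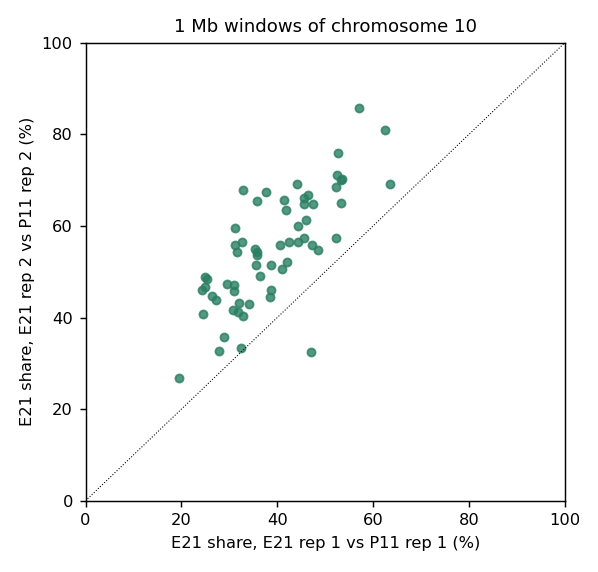
E21 share of unshared regions (%) in each of the 62 windows of 1 Mb with at least 20 stage-specific regions, from E21 and P11 replicates 1 (x axis) and from replicates 2 (y axis). The dotted line marks equal shares, and 61 of the 62 points lie above it. Stage-specific regions enter both shares, so the points rise together in part by construction (Pearson r of 0.749).

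Regions open at both stages also leaned towards E21 on chromosome 10. A shared region was counted as rank-shifted when its ranks at 1 stage were both above its ranks at the other, with 25 points or more between the means. Of the 4210 shared regions, 517 ranked higher at E21 (12.3%, background 8.44%) and 342 ranked higher at P11 (8.12%, background 12.5%). The E21 share of 60.2% exceeded the 30.4 to 51.3% of the other chromosomes. With ranks taken among shared regions only, the counts were 728 and 335. Without P11 replicate 2 they were 700 and 422, and without E21 replicate 2 the order turned, at 455 and 602. Ranks are among the values on which the chromosome was selected, so these counts carry no test. Across shared regions Spearman's rho was 0.921 between the E21 libraries, 0.857 between the P11 libraries and from 0.658 to 0.698 between stages.

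The size of the change in single shared regions was tested on the deposited fold. The log2 fold was centred on its median over all shared regions of the genome in each library and fitted with limma, with Benjamini-Hochberg adjustment over all of them at 0.05. In limma the variance of a region is drawn towards that of all regions fitted. The SEs given below therefore lie near the median of 0.225 on chromosome 10. They and the adjusted p do not measure the spread between the litters at that region alone. On chromosome 10, 470 regions were higher at E21 (11.2%, background 8.49%) and 378 were higher at P11 (8.98%, background 11.3%), an E21 share of 55.4% where the other chromosomes had 42.9%. Of these, 98 (2.33%, background 1.67%) and 85 (2.02%, background 3.27%) differed by at least 2-fold. The median log2 change from E21 to P11 was −0.03 on chromosome 10 and 0.02 elsewhere, and 90% of the shared regions lay between −0.81 and 0.81, so most changes were small. By limma and by rank together, 302 regions were higher at E21 (7.17%, background 4.98%) and 295 at P11 (7.01%, background 9.94%), and no region was called in opposite directions. The counts rest on the same libraries that set the chromosome apart and add no independent evidence to its split.

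Which stage had more of the called regions depended on the setting. Without centring, the folds of all shared regions were lower at P11 by a median of −0.30 on the log2 scale on the other chromosomes and −0.35 on chromosome 10, and the calls became 1034 higher at E21 and 85 higher at P11, an E21 share of 92.4% (87.3% elsewhere). Changes are therefore given relative to the median of each library. Without P11 replicate 2 the calls were 210 and 211, so the lead of E21 in this count was gone, while the E21 share of 49.9% was still above the 38.6% of the other chromosomes. Without E21 replicate 1 they were 145 and 139, without E21 replicate 2 they were 241 and 233, and without P11 replicate 1 they were 251 and 197. The E21 shares in these 3 fits were 51.1, 50.8 and 56% on chromosome 10 and 31.5, 40.7 and 40.6% elsewhere.

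The largest fall after birth was found at chr10:70786455-70787287. Its fold was 15.6 and 16.6 in E21 replicates 1 and 2 and 3.4 and 3.1 in P11 replicates 1 and 2, from 98, 122, 17 and 15 fragments. The centred log2 change was −2.0 (SE 0.22, limma with Benjamini-Hochberg adjustment, adjusted p = 4.91e-07), and the region went from the 87.2 and 91.5 percentile to the 9.09 and 2.20. Both P11 values were close to the weakest calls of their lists.

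Regions at chr10:26856262-26857095, chr10:41878832-41879363 and chr10:49472343-49472804 each fell by 1.72 on the log2 scale. At the first of them the folds went from 15.2 and 13.9 to 3.4 and 3.68. The last of them kept a fold of 7.36 in P11 replicate 1 but had 4.06 in P11 replicate 2, the widest gap between P11 litters among the 3. At chr10:68225648-68226047 the fold fell by 1.70 on that scale, from 15.2 and 23.8 to 5.66 and 3.87. These 5 regions were chosen for the largest fall, and their limma adjusted p ran from 4.91e-07 to 1.20e-05. The region at chr10:26856262-26857095 lies inside the E21 stretch from 21 to 28 Mb, and that at chr10:49472343-49472804 inside the stretch from 48 to 51 Mb.

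The largest rise was found at chr10:29267545-29268105. Its fold was 2.93 and 3.65 in E21 replicates 1 and 2 and 11.3 and 10.6 in P11 replicates 1 and 2, with 16, 21, 70 and 54 fragments. The centred log2 change was 2.06 (SE 0.22, limma adjusted p = 4e-07), and its rank went from 0.932 and 13.0 to 91.6 and 86.7. At E21 replicate 1 it was among the weakest calls of the list.

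A rise of 1.81 was found at chr10:98734345-98734884, from folds of 3.62 and 4.31 to 9.99 and 12.4. It lies inside the E21 stretch from 98 to 102 Mb, so this stretch also held a region that went the other way. In the first window of the chromosome, the region at chr10:703307-703824 rose by 1.64, from folds of 4.31 and 4.97 to 10.0 and 13.5. The rises at chr10:108244894-108245548 and chr10:85768203-85768870 were 1.61 and 1.55. The former stood on a local background of 10.9 to 15.2 fragments in the 4 libraries, well above the genome-wide level. As with the falls, these 5 regions were chosen for the largest change, and their limma adjusted p ran from 4e-07 to 1.31e-05.

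**Figure D5:**
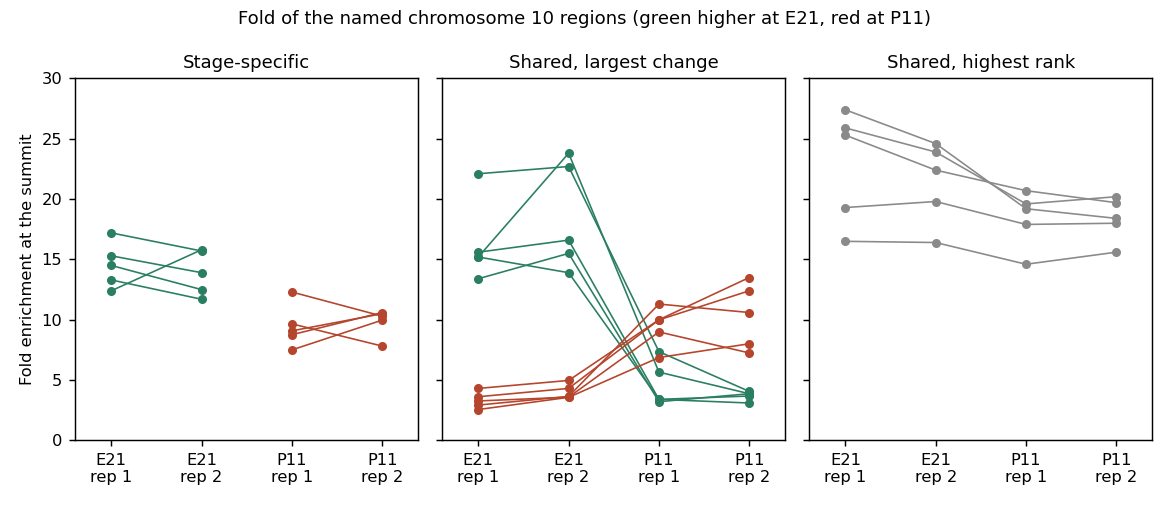
Fold enrichment at the summit (y axis, linear) in each library (x axis) for the 5 leading stage-specific regions of each stage (left), the 5 shared regions with the largest limma change in each direction (middle) and the 5 highest-ranked shared regions (right). Lines join the values of 1 region, green for regions higher at E21, red for regions higher at P11 and grey for regions not called different. Shared regions that fell have folds of at least 13.4 in both E21 libraries and at most 7.36 in the P11 libraries.

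The highest-ranked shared regions were not called different. They were picked for high ranks over all libraries, which leaves little room for a change between the stages. The region at chr10:112523270-112524100, near the end of the chromosome, had folds of 25.9, 23.9, 19.6 and 20.2 in E21 replicates 1 and 2 and P11 replicates 1 and 2, from 417 to 562 fragments. Its centred log2 change was −0.01 (SE 0.22, limma adjusted p = 0.99). The most fragments at a summit in the E21 libraries, 827 and 785, were those of chr10:47452642-47454088, against 347 and 342 at P11, but on a local background of 49.3 and 47.0 against 22.8 and 21 fragments, so that its folds were 16.5, 16.4, 14.6 and 15.6. Those at chr10:15098561-15099479, chr10:729691-730743 and chr10:110862519-110863462 ranked above the 99 percentile in every library, with centred log2 changes from −0.15 to 0.19. That at chr10:729691-730743 is in the first window, 25.9 kb from the region at chr10:703307-703824 that rose. These neighbouring regions of that window differed in their change, though each was picked by a different rule, for its change or for its rank.

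The widest regions had low folds for their ranks. The region at chr10:107951284-107954074, in the densest window, spanned 2791 bp and had folds of 5.12, 6.22, 5.16 and 4.78, with ranks from 61.4 to 76.1. The regions at chr10:86709871-86712541 and chr10:65422723-65425328 spanned 2671 and 2606 bp, the former with folds from 4.41 to 5.85 and ranks from 77.0 to 80.1, and the latter with folds from 7.61 to 9.50 and ranks from 90.8 to 93.1. All 3 were called in every library. Joining would change little with a limit of up to 10 bp in place of 1 bp, since only 3 joins rested on an overlap under 10 bp and the smallest was 2 bp.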

How the data were processed

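ATAC-seq was performed on 4 libraries of rat RGCs, 2 per stage, each from a separate litter. The authors processed reads with AIAP and called OCRs per library without pooling. The submitters' processing notes name MACS2 and the builds Rnor_6.0 and rn6, and versions are not given in the sources used here. The deposited lists hold the authors' score (−log10 q times 10), the fold enrichment ratio at the summit, −log10 p and −log10 q values, and the summit offset. Their lowest −log10 q was just above 2, a limit of q = 0.01. They hold no reads per region, so the count test of the study (DESeq2) was not rerun.

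OCRs overlapping by at least 1 bp were merged into regions, and a library took its best OCR by −log10 q. Fold and −log10 p were solved for the summit pileup, which was whole within 0.02 in 100% of OCRs, and for local background. Windows of 1 Mb started at position 0 and took regions by their centre. The log2 of the deposited fold of regions called in all libraries was tested with limma 3.58.1 (R 4.3.3), with 2 residual degrees of freedom, after a test on simulated data. Single values were compared without a test, since exact permutation with 2 libraries per stage cannot give a low p. Other steps used Python 3.11.15, pandas 2.3.3, numpy 2.4.6 and scipy 1.17.1. Named regions were the 5 stage-specific regions of each stage with the highest mean rank, the 5 called shared regions with the largest change each way, the 5 shared regions of highest rank and the 3 widest. Named windows were the 5 with most regions, the 3 with fewest, and the 5 highest and 5 lowest in E21 share. The chromosome, lists and tests were chosen with earlier results of these data known. Alternatives were a −log10 q of at least 5, the best 125000 OCRs of each library, a reciprocal overlap of 50%, each library left out, a replicate block, other rank minimums, scalings and windows. Promoter, marker and motif comparisons need a genome of the same build and were not run.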

Additional observations from a re-analysis of the deposited data

How the results depend on the processing

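Chromosome 10 had the highest E21 share of stage-specific regions of the 20 chromosomes with all libraries, with −log10 q of at least 5 (56.1%), with equal numbers of OCRs (62.9%) and without each library in turn (43.3 to 64.8%). Its excess over the other chromosomes ran from 7.64 to 13.8 points over the fits without 1 library and was 9.38 with the reciprocal overlap. That overlap, counted on single OCRs, gave 1443 E21-specific and 1405 P11-specific regions on chromosome 10, an E21 share of 50.7%. It left 3148 called in all libraries. The OCR difference was −353.5 with −log10 q of at least 5, −821.0 with equal numbers, and from −631.0 (without E21 replicate 1) to 892.0 without 1 library. Leaving out a library, which relaxes the criterion of its stage, gave 1477 to 2228 E21-specific and 1211 to 2008 P11-specific regions, with 2228 E21-specific without E21 replicate 1, and 1750, 1929 and 2008 P11-specific without E21 replicate 2, P11 replicate 1 and P11 replicate 2. Rank-shifted regions numbered 1102 and 690 with 10 points, 168 and 133 with 40 points, and 455 to 789 (E21) and 414 to 602 (P11) without 1 library. Without P11 replicate 1 there were 789 at E21, and without E21 replicate 2 there were 455 at E21 and 602 at P11, the reverse order. The limma calls were 337 and 212 with quantile normalization, 1034 and 85 without centring, and 145 to 251 (E21) and 139 to 233 (P11) without 1 library, where fewer samples were fitted. Windows with more E21-specific regions numbered 44 of 57 with equal numbers, 26 to 74 without 1 library (74 of 94 without E21 replicate 1, a majority at E21, 28 of 87 without E21 replicate 2, 26 of 92 without P11 replicate 1 and 26 of 94 without P11 replicate 2), 44 of 103 with a minimum of 10 and 0 of 3 with a minimum of 40. The cause of these shifts was not tested.

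Replicate numbers did not pair the libraries, which came from separate litters: same-numbered libraries had a correlation of 0.0569 in their deviations from stage means. The replicate block gave 2302 E21-specific and 2350 P11-specific regions, a share of 49.4% and an excess of 10.1 points, and limma calls of 510 and 408. Promoter shares (3 kb, 1 kb, protein-coding genes, −log10 q of at least 5, each library left out) were not run. Depth limits what absence means, since a call needed 13 or 14 fragments at the summit.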

Other observations

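The median local background over the regions of chromosome 10 was 5.66 and 6.03 fragments in E21 replicates 1 and 2 and 5.17 and 4.65 in P11 replicates 1 and 2. Values over 50 fragments were found in 5 and 4 regions of the E21 libraries and in none of the P11 libraries, with maxima of 72.3, 63.7, 41.1 and 35.1 fragments.

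Among windows with at least 10 shared regions, the centred log2 fold from E21 to P11 was most negative from 99 to 100 Mb, with a median of −0.42 over 10 shared regions, and from 33 to 34 Mb, with −0.39 over 15. It was highest from 0 to 1 Mb, with 0.68 over 11 shared regions, of which limma called 6 higher at P11 and 1 higher at E21. These windows were picked after their values were seen and are given as a description.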
